A study of Mus musculus with 9 samples.

Results

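The Bcl2 family decides whether a cell keeps its mitochondria intact or dies by apoptosis, and 10 of its genes were followed here across wildtype cerebellum, Sufu knockout (KO) cerebellum and Ptch1 KO medulloblastoma, a tumour of the cerebellum. The genes were taken by name, and each was read from a probe set annotated to exactly 1 gene. Of the 10, 9 were measured in this way (Bcl2, Bcl2l1, Mcl1, Bak1, Bcl2l11, Bad, Bid, Bbc3 and Pmaip1), out of 19938 genes in all, and each had 1 probe set. The expression of Bax was not analysed here. All 9 samples came from mice at postnatal day 13, with 3 samples in each group, and the total RNA of each was read on a separate array of the type Affymetrix Mouse Gene 1.0 ST. The groups were labelled wildtype, SufuKO and Ptch1KO, the first 2 from cerebellum and the third from tumour tissue. The labels give no strain and no driver of the deletions. They also do not say that replicates are different mice, so a p-value here covers only the scatter of these samples, some of which may be technical.

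Proteins of this family fall into 3 classes. Pro-survival members such as Bcl2, Bcl-xL (from Bcl2l1) and Mcl1 bind and restrain the effectors Bax and Bak, which otherwise open the outer mitochondrial membrane and release cytochrome c. BH3-only members such as Bim (from Bcl2l11), Bad, Bid, Puma (from Bbc3) and Noxa (from Pmaip1) carry stress signals to the other classes. In the postnatal cerebellum the family is known for setting the survival of granule neuron progenitors, and Bcl2 has been described as a target of the Gli transcription factors that the Hedgehog pathway controls. Sufu and Ptch1 both restrain that pathway.

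The start regions of the 3 genes below are shown because a difference of each from wildtype (Bcl2 in Sufu KO, Mcl1 in the tumours, Bid in both) held under all 20 alternatives tried. For Bid these include a filter at the array median that its tumour arrays alone passed, so that filter gives no support. Some alternatives could not move a difference at all, as described at the end. Each is 250 bases before to 50 bases after an annotated start, from RefSeq (GRCm38.p6), printed 5′ to 3′ on the gene's strand. Capitals mark matches to the GC box GGGCGG, the site read by Sp1-type factors, on either strand. The windows of the family counted below covered 9 of the 10 genes, Bax among them. Pmaip1 was left out of them, so the family counts say nothing about its start region.

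Bcl2 (chr1:106714241-106714540, minus strand): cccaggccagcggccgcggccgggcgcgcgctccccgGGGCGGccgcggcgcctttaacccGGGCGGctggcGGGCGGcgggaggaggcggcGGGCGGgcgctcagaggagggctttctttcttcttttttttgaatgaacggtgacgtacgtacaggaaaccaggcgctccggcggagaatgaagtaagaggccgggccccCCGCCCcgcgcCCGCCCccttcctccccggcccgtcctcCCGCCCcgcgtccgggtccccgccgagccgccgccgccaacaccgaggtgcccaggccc

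Bid (chr6:120916775-120917074, minus strand): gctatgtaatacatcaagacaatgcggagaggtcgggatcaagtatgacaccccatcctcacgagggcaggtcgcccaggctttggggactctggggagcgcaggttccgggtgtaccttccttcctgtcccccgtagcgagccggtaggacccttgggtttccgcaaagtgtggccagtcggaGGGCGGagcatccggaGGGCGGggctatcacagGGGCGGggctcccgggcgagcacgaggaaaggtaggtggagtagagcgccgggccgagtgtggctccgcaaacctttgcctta

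Mcl1 (chr3:95658471-95658770, plus strand): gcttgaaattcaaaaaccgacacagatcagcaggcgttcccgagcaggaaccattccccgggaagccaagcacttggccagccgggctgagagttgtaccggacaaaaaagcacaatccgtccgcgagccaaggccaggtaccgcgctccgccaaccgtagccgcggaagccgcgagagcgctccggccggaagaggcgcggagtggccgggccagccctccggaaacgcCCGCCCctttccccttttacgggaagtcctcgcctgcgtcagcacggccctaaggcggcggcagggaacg

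The Bcl2 window held 7 GC box matches and 44 CpG dinucleotides, the Bid window 3 and 22, and the Mcl1 window 1 and 33, against a median of 7 CpG over 32851 windows of the same length. A GC box was found in 35.7% of all those windows and in 10 of 15 windows of the family. Several of the 15 belong to the same gene, and some of those of Bbc3 overlap, so they are not separate promoters. The Gli motif GACCACCCA was in 0.253% of all windows, and the E2F motifs TTTGGCGC and TTTCCCGC in 0.514% and 1.07%, both strands searched. None of these 3 motifs was found in the 15 windows, which says only that these exact letters do not occur there.

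Values are expression levels, taken to be on the log2 scale. Array medians ran from 6.72 to 6.79, and the small number of arrays limits the precision of every value. Sufu averaged 8.96 ± 0.12 (log2, SD, n = 3) in wildtype, 8.07 ± 0.07 with Sufu deleted and 9.88 ± 0.06 in tumour samples, while the deleted part of Ptch1 is not given and its level (10.26, 10.20 and 11.28) does not check that label. Xist, which marks female samples, was high on 3 of 3 wildtype arrays and on 1 of 3 arrays of each mutant group. The first principal component carried 77.5% of the variance, with tumour replicate 3 at 26.1 on this axis, closer to the wildtype arrays than the other tumours at 41.3 and 39.9.

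The levels of marker genes of cell types differed along with the genotypes. The defining genes of cerebellum were present in wildtype, where the summed linear level of 11 mature granule neuron genes ran from 29217 to 32694. It ran from 19150 to 20025 in Sufu KO and from 7788 to 11843 in the tumours, and 9 of the 11 genes fell in Sufu KO and 11 of 11 in the tumours. For 10 granule neuron progenitor genes the sums were 2166 to 2803, 7779 to 8276 and 11308 to 14587 in the same order, with 9 of 10 and 10 of 10 risen. Bergmann glia and astrocyte genes fell in 8 of 9 cases in either mutant group (sums 11996 to 12675, 6526 to 6666 and 4815 to 6790). Mature oligodendrocyte genes fell in 8 of 8 cases in either (sums 12720 to 15215, 7772 to 10378 and 3115 to 3973). Purkinje cell genes fell in 7 of 7 cases in either mutant group, and the joint list of endothelial and pericyte genes in 5 of 9 and 9 of 9. Microglia genes rose in 2 of 10 and 6 of 10 cases (sums 1333 to 1359, 1454 to 1625 and 1914 to 2222). The other 8 did not pass in Sufu KO, where the list median was 0.14 (log2). Of all 16323 tested genes, 2122 rose and 2028 fell in Sufu KO, and 3606 rose and 4038 fell in the tumours. Beside these counts, 2 calls of 10 do not show that microglia genes as a list rose in Sufu KO. In such bulk RNA, fewer cells of a type and less RNA per cell cannot be told apart, and the part of cell makeup in the levels below was not tested.

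**Figure D1:**
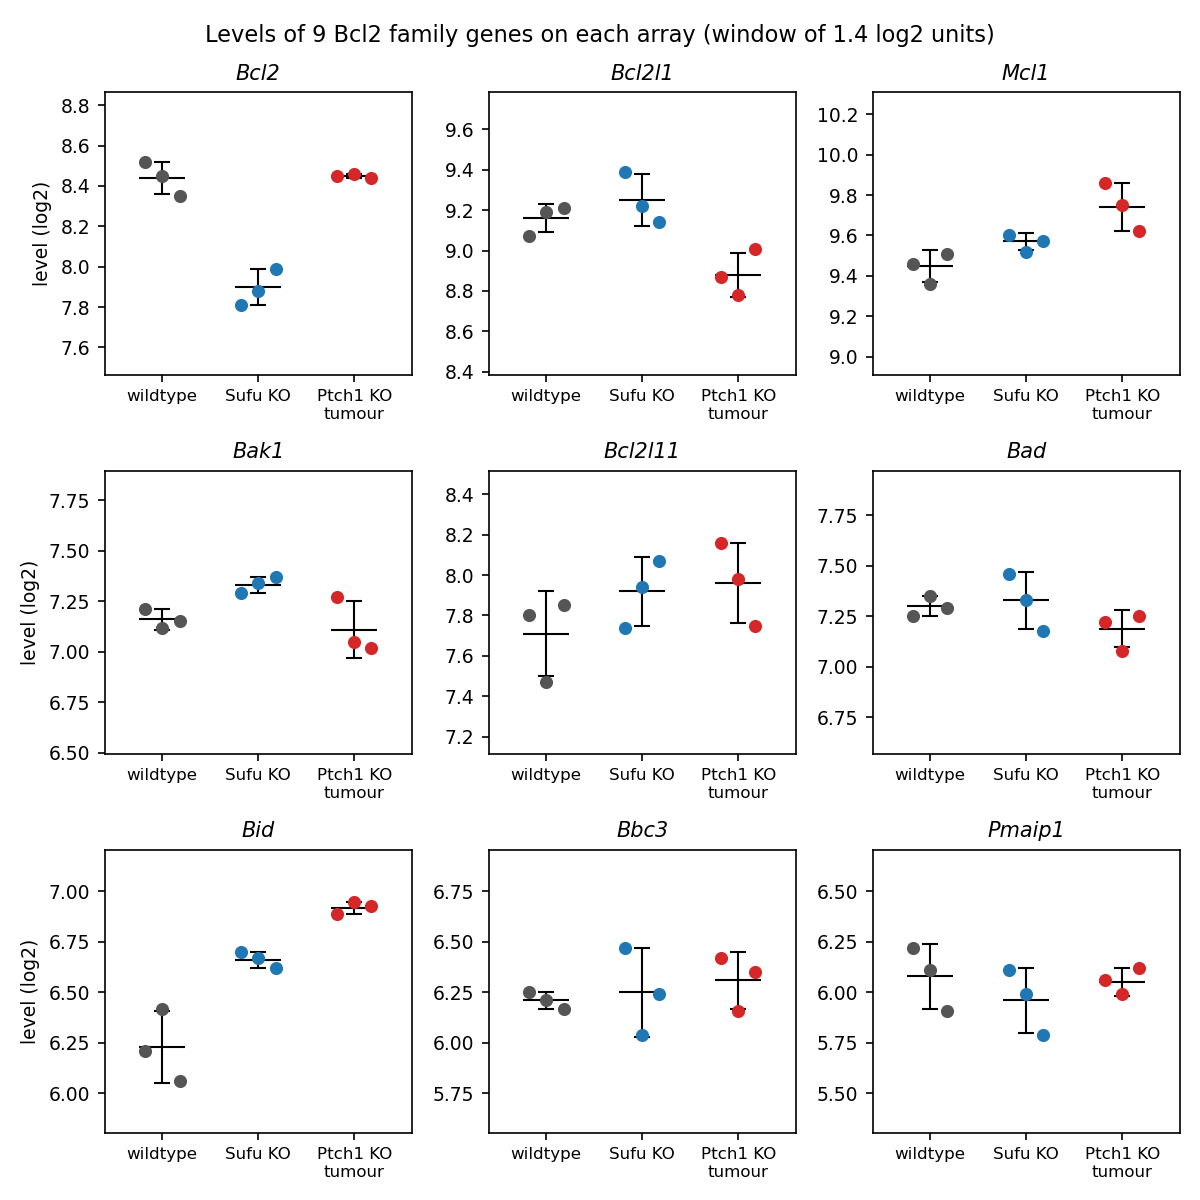
Levels of the 9 measured genes on each array (vertical axis, log2, every panel spanning 1.4 units) in wildtype, Sufu KO and Ptch1 KO tumour samples; points are arrays, bars the mean and the SD of 3. Bcl2 is low on all 3 Sufu KO arrays, and Bid is lowest in wildtype and highest in the tumours.

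Bcl2, the founding pro-survival member, was low in Sufu KO alone. Its levels were 8.52, 8.45 and 8.35 in wildtype, 7.81, 7.88 and 7.99 in Sufu KO, and 8.45, 8.46 and 8.44 in the tumours (log2). Every Sufu KO array lay below every array of the other groups, and the tumour values fell within the wildtype range. Bcl2 fell 1.46-fold in Sufu KO against wildtype (log2 difference -0.54 ± 0.07, SE, limma adjusted p = 1.79e-04) and stood 1.47-fold higher in the tumours than in Sufu KO (adjusted p = 1.17e-04). Between tumours and wildtype the difference was 0.01, with a 95% confidence interval from -0.14 to 0.17 (adjusted p = 0.920). With sex as a covariate the fall in Sufu KO was -0.49 (adjusted p = 0.00169). The Sufu KO array with high Xist read 7.99, below the 3 wildtype arrays, which all had high Xist.

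The calls of Bcl2 were an uncommon combination among the genes of the array. Of 16323 genes tested, 63 (0.386%) were lower in Sufu KO than in wildtype, higher in the tumours than in Sufu KO, and not called between tumours and wildtype. Its residual SD between arrays of a group was 0.07, against a median of 0.10 over all tested genes. The 3 genes whose levels followed Bcl2 most closely over the 9 arrays were Sox2, a transcription factor of neural stem cells and glia, Ptprz1, a receptor phosphatase, and Ramp2, a receptor accessory protein, with Pearson r of 0.968, 0.963 and 0.954. Sox2 averaged 8.17 ± 0.06 in wildtype, 7.51 ± 0.13 with Sufu deleted and 8.07 ± 0.09 in tumour samples (SD, n = 3). These correlations were picked from all tested genes and share the arrays, so they are descriptions.

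**Figure D2:**
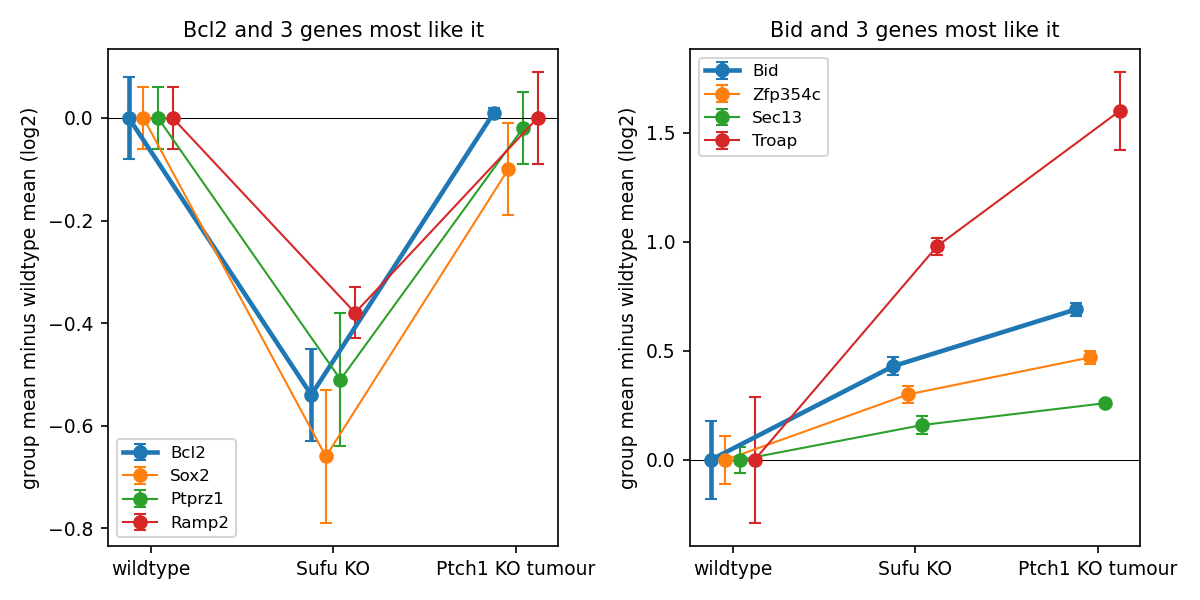
Group means minus the wildtype mean (vertical axis, log2; error bars are the SD of 3 arrays) for Bcl2 and Bid, each with the 3 genes most correlated with it over 9 arrays. Bcl2, Sox2, Ptprz1 and Ramp2 dip in Sufu KO and lie near the wildtype mean in the tumours, while Bid and its 3 genes are highest in the tumours.

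The other pro-survival genes, Bcl2l1 and Mcl1, differed in the tumours and moved in opposite directions there. Bcl2l1 encodes the pro-survival protein Bcl-xL. Its wildtype arrays read 9.07, 9.19 and 9.21, its Sufu KO arrays 9.39, 9.22 and 9.14, and its tumour arrays 8.87, 8.78 and 9.01 (log2). All tumour arrays lay below all others, and the wildtype and Sufu KO arrays overlapped. In the tumours Bcl2l1 fell 1.21-fold against wildtype (log2 difference -0.27 ± 0.08, SE, limma adjusted p = 0.0186) and was 1.29-fold lower than in Sufu KO (adjusted p = 0.00554). The call against wildtype ended without wildtype replicate 2 (adjusted p = 0.0620) or 3 (0.0639) and without tumour replicate 1 (0.0543) or 2 (0.0839), and over the 20 alternatives the adjusted p ran from 0.00346 to 0.0839. Between Sufu KO and wildtype the difference was 0.10, with a 95% confidence interval from -0.09 to 0.28.

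Mcl1, a short-lived pro-survival protein, read 9.46, 9.36 and 9.51 in wildtype, 9.60, 9.52 and 9.57 in Sufu KO, and 9.86, 9.75 and 9.62 in the tumours (log2). The groups were ordered wildtype, Sufu KO and tumours, with no overlap between any of them. Mcl1 rose 1.23-fold in the tumours against wildtype (log2 difference 0.30 ± 0.08, SE, limma adjusted p = 0.00572). The neighbouring steps did not pass, at 0.12 for Sufu KO against wildtype (adjusted p = 0.287) and 0.18 for tumours against Sufu KO (adjusted p = 0.107). The step between the mutants passed in 3 of 20 alternatives: without tumour replicate 3 (0.23, adjusted p = 0.0335), with quantile normalization (0.21, adjusted p = 0.0401) and with array weights (0.25, adjusted p = 0.00135). Array weights, used here and below, also raised the calls over all genes, from 4846 to 8147 between the mutants. The estimation of these weights stopped short of its tolerance.

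Bak1 was the only effector gene measured. Its protein sits on the outer mitochondrial membrane and forms the pore when freed. Bak1 read 7.21, 7.12 and 7.15 on the wildtype arrays, 7.29, 7.34 and 7.37 on those of Sufu KO, and 7.27, 7.05 and 7.02 on the tumour arrays (log2). Every Sufu KO array lay above every array of the other groups, whose ranges overlapped. The difference between tumours and Sufu KO was -0.22 ± 0.08 (SE, limma adjusted p = 0.0497), and that between Sufu KO and wildtype was 0.17 with adjusted p = 0.125 (0.0155 with array weights). The call between the mutants was marginal: it ended under 13 of 20 alternatives, with adjusted p from 0.00988 to 0.166. It ended without wildtype replicate 1 (0.0649), 2 (0.0659) or 3 (0.0656), without Sufu KO replicate 1 (0.0596), 2 (0.128) or 3 (0.111), and without tumour replicate 2 (0.166) or 3 (0.144). The other settings that ended it were the 2-group fit (0.0889), the replicate block (0.0638), the trended prior (0.0603), no filter (0.0533) and sex as a covariate (0.0529).

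Bid stepped up from wildtype through Sufu KO to the tumours. Its protein is cut by caspase 8 and links death receptors to the mitochondria. Bid read 6.21, 6.42 and 6.06 on the wildtype arrays, 6.70, 6.67 and 6.62 on those of Sufu KO, and 6.89, 6.95 and 6.93 on the tumour arrays (log2), so no arrays of different groups overlapped. Its wildtype and Sufu KO readings lay below the array medians of 6.72 to 6.79. Bid was thus a dim gene, at least 0.73 above the 25th percentile of each array. It rose 1.35-fold in Sufu KO (log2 difference 0.43 ± 0.09, SE, limma adjusted p = 0.00280) against wildtype, where its difference exceeded that of 94.4% of tested genes. The tumours stood 1.62-fold above wildtype (0.69 ± 0.09, adjusted p = 2.45e-05). With sex as a covariate these were 0.43 (adjusted p = 0.0134) and 0.68 (adjusted p = 2.28e-04).

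The step in Bid between the mutants was smaller, at 0.26 ± 0.09 (SE, limma adjusted p = 0.0376). That call ended without wildtype replicate 1 (0.0536), without Sufu KO replicate 1 (0.0566), 2 (0.0942) or 3 (0.0866), and without tumour replicate 1 (0.0724), 2 (0.109) or 3 (0.0710). Its adjusted p over all alternatives ran from 0.00377 to 0.109, and the difference stayed between 0.24 and 0.28. A rise in all 3 comparisons was called for 917 of 16323 genes (5.62%). The genes most like Bid over the 9 arrays were Zfp354c, a zinc finger gene, Sec13, a coat protein of transport vesicles and nuclear pores, and Troap, a spindle protein of dividing cells, with Pearson r of 0.995, 0.990 and 0.981. Troap read 6.77 ± 0.29, 7.75 ± 0.04 and 8.37 ± 0.18 (log2, SD, n = 3) in wildtype, Sufu KO and tumours.

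The other 4 BH3-only genes did not pass the test in any comparison, with unadjusted p from 0.0682 to 0.806. Bcl2l11, whose product Bim is a death signal of neurons losing trophic support, read 7.80, 7.47 and 7.85 in wildtype, 7.74, 7.94 and 8.07 in Sufu KO, and 8.16, 7.98 and 7.75 in the tumours (log2). The groups overlapped. Its residual SD of 0.19 exceeded that of 94.6% of tested genes, and the 95% confidence interval of its tumour difference from wildtype ran from -0.02 to 0.53 (limma adjusted p = 0.126). Without tumour replicate 3 that difference was 0.36 and passed (adjusted p = 0.0389), and with array weights Bcl2l11 passed against wildtype in the tumours (0.32, adjusted p = 0.0239) and in Sufu KO (0.24, adjusted p = 0.0277). In Sufu KO against wildtype these weights raised the calls over all genes from 4150 to 7418.

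Bad, a BH3-only protein that growth factor kinases switch off, had levels of 7.25, 7.35 and 7.29 in wildtype, 7.46, 7.33 and 7.18 in Sufu KO, and 7.22, 7.08 and 7.25 in tumour samples (log2). Sufu KO spanned the whole wildtype range, tumour replicates 1 and 2 lay below it, and tumour replicate 2 lay below every other array. Bad differed from wildtype by 0.03 in Sufu KO (limma adjusted p = 0.850) and by -0.11 in tumour samples (adjusted p = 0.319), and the mutants differed by -0.14 (adjusted p = 0.252). With sex as a covariate the tumour difference of Bad from wildtype was -0.23 and passed (adjusted p = 0.0346), and with array weights the mutants differed (-0.16, adjusted p = 0.0246).

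Bbc3, whose product Puma is induced by p53, had levels of 6.25, 6.21 and 6.17 in wildtype, 6.47, 6.04 and 6.24 in Sufu KO, and 6.42, 6.16 and 6.35 in tumour samples (log2). Wildtype was the tightest of its groups, with an SD of 0.04 against 0.22 and 0.14 in the mutants, and all groups overlapped. Its differences were 0.04, 0.10 and 0.06 for Sufu KO and tumours against wildtype and for tumours against Sufu KO (limma adjusted p = 0.824, 0.478 and 0.758), the last being 0.25 and called with array weights (adjusted p = 0.0192). Pmaip1, whose product Noxa counteracts Mcl1, was the dimmest of the 9 probe sets relative to the array floor, at least 0.47 above the 25th percentile of each array (log2). It had levels of 6.22, 6.11 and 5.91 in wildtype, 6.11, 5.99 and 5.79 in Sufu KO, and 6.06, 5.99 and 6.12 in tumour samples. The groups overlapped, with differences of -0.12, -0.02 and 0.09 (adjusted p = 0.457, 0.877 and 0.575). The 95% confidence intervals of Bad, Bbc3 and Pmaip1 against wildtype lay within -0.33 and 0.33, so a larger change than that was outside the intervals and smaller ones were not resolved with 3 arrays per group.

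Within the groups, a few arrays sat at the edge for several genes of the family. Tumour replicate 3, which lay closest to wildtype on the first principal component, had the lowest Mcl1 (9.62), the lowest Bcl2l11 (7.75) and the highest Bcl2l1 (9.01) of the tumours, the tumour values nearest to the wildtype means of these genes. It also had the lowest Bak1 (7.02), the tumour value furthest from the wildtype mean, and the highest Pmaip1 (6.12) and Bad (7.25), while its Bcl2 (8.44), Bid (6.93) and Bbc3 (6.35) lay beside those of other tumours. Sufu KO replicate 1 had the highest Bcl2l1 (9.39), Bad (7.46), Bbc3 (6.47) and Pmaip1 (6.11) of its group and the lowest Bcl2 (7.81). The spread within groups was smallest for Bcl2 and largest for Bcl2l11.

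**Figure D3:**
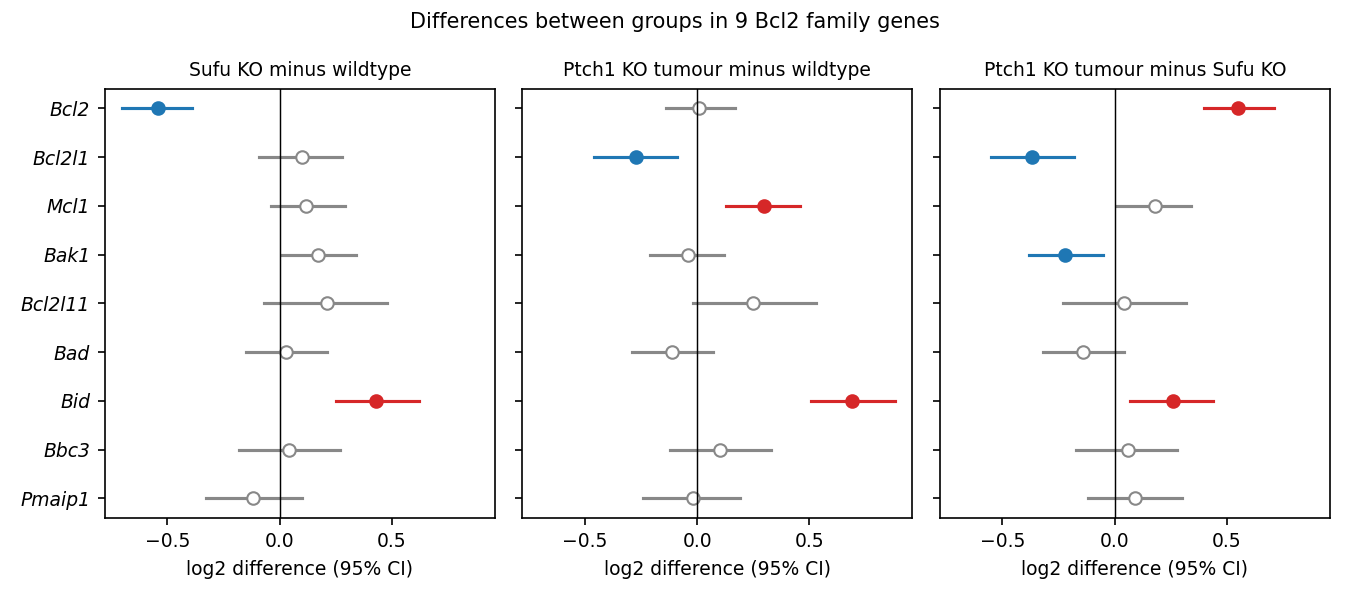
Log2 differences of the 9 genes in the 3 comparisons (horizontal axis; lines are 95% confidence intervals from the limma fit of all 9 arrays). Filled red points are called higher and filled blue points lower at an adjusted p under 0.05, and open grey points did not pass. The widest difference is that of Bcl2 in Sufu KO against wildtype (-0.54), Bid in the tumours against wildtype (0.69) and Bcl2 between the mutants (0.55).

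Counted together, 2 of 9 genes (22.2%) were called in Sufu KO against wildtype (1 higher, 1 lower), beside 25.4% of all tested genes (2122 genes higher and 2028, or 12.4%, lower). In the tumours against wildtype 3 of 9 (33.3%) were called (2 higher, 1 lower), beside 46.8% of all genes (22.1% higher, 24.7% lower), and between tumours and Sufu KO 4 of 9 (44.4%; 2 higher, 2 lower), beside 29.7% (12.2% higher, 17.5% lower). Groups did not overlap for 4, 3 and 5 of the 9 genes, beside 41.0%, 56.6% and 39.7% of all genes. The median log2 difference of the 9 genes was 0.10, 0.01 and 0.06 in the 3 comparisons, and that of all tested genes -0.006, -0.013 and -0.008. Between the mutants the family count was 2 or 3 when any 1 array was left out, and 2 without wildtype replicate 1, Sufu KO replicate 1, 2 or 3, or tumour replicate 2. Each pair of these comparisons has 3 arrays in common. All 9 genes lay above the 25th percentile of each of the 9 arrays, so none entered the test through 1 group alone.

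Other genes of the cell death pathway were read from 5 lists of 63 genes, of which 55 had a single-gene probe set and 51 were tested. In Sufu KO 13 rose, 6 fell and 32 did not pass, which is 37.3% called. In the tumours against wildtype 18 rose, 12 fell and 21 did not pass (58.8%), and between tumours and Sufu KO 12 were higher and 10 lower (43.1%). The same shares over all tested genes were 25.4%, 46.8% and 29.7%, and a larger share of the lists does not show that they stand apart.

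Further Bcl2 family genes rose in 3 of 11 cases in Sufu KO and in 5 of 11 in the tumours, where 2 fell. The median log2 difference of the 11 was 0.03 and 0.17. Bok, an effector-like member, averaged 7.41 ± 0.03 (log2, SD, n = 3) in wildtype, 7.75 ± 0.11 with Sufu deleted and 8.50 ± 0.24 in tumour samples. It rose 2.13-fold in the tumours against wildtype (limma adjusted p = 3.23e-06) and was 1.69-fold above Sufu KO there. Bcl2l13, a mitochondrial membrane protein of the family, rose 1.39-fold in Sufu KO and 1.41-fold in the tumours. Bnip3l, a receptor for mitochondrial removal, rose 1.34-fold in Sufu KO (adjusted p = 6.44e-04). Bcl2l2, which encodes the pro-survival protein Bcl-w, fell 1.23-fold in the tumours (adjusted p = 0.00174), and Bnip3, a hypoxia-induced relative of Bnip3l, fell 1.43-fold there (adjusted p = 6.90e-04).

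Downstream of the mitochondria, 3 of 9 apoptosome and caspase genes rose and 1 fell in Sufu KO, and 5 rose and 2 fell in the tumours. Medians were 0.07 and 0.28 (log2). Apaf1, the scaffold of the apoptosome, rose 1.48-fold in Sufu KO (limma adjusted p = 9.97e-04), and in the tumours 1.99-fold (adjusted p = 2.88e-06). Casp2, an initiator caspase, rose 1.60-fold and 1.99-fold, and its 1.24-fold step between the mutants ended without tumour replicate 1 (adjusted p = 0.0541). Cycs, the cytochrome c of the respiratory chain that activates Apaf1, went the other way, 1.53-fold lower in the tumours (adjusted p = 3.46e-04). Its 1.32-fold fall in Sufu KO ended with sex as a covariate (adjusted p = 0.113), without wildtype replicate 1 (0.0704) and without Sufu KO replicate 1 (0.0532). Endog, a mitochondrial nuclease, fell 1.27-fold in the tumours.

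Among the 6 tested inhibitors of apoptosis, Birc5 was the gene that rose in both mutant groups. Birc5 encodes survivin, which also serves the chromosomal passenger complex of mitosis. It averaged 5.96 ± 0.12 in wildtype, 7.04 ± 0.05 with Sufu deleted and 7.80 ± 0.35 in tumour samples (log2, SD, n = 3), 2.10-fold and 3.58-fold above wildtype (limma adjusted p = 1.69e-04 and 4.17e-07). Xiap, a direct caspase inhibitor, fell 1.22-fold in the tumours (adjusted p = 0.0233), a call that ended with sex as a covariate (-0.16, adjusted p = 0.207). The Xiap call also ended without wildtype replicate 1 (0.0572) or 3 (0.0988) and without tumour replicate 1 (0.0873). The median of the 6 was 0.00 in Sufu KO and 0.03 in the tumours.

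Of 8 death receptor genes, 1 rose in Sufu KO and 3 in the tumours, with medians of 0.15 and 0.12. Casp8, the caspase that cuts Bid, rose 1.37-fold in Sufu KO (limma adjusted p = 0.00164), and in the tumours 1.45-fold (adjusted p = 1.41e-04). Ngfr, the p75 neurotrophin receptor found on granule neuron progenitors, rose 2.27-fold in the tumours and was 1.85-fold above Sufu KO there. Between the mutants Tnfrsf10b, a receptor for the ligand Trail, was 0.27 higher and Tnfrsf21 was 0.27 lower on the log2 scale in the tumours (adjusted p = 0.0290 and 0.0283). The Tnfrsf10b call ended without Sufu KO replicate 1 (0.0646) or 3 (0.0856) and without tumour replicate 1 (0.134) or 2 (0.0857), and with only the 2 groups fitted (0.0599). That of Tnfrsf21 ended without Sufu KO replicate 1 (0.0727) or 2 (0.137), without tumour replicate 1 (0.0962) or 2 (0.0859), with quantile normalization (0.0694) and with only the 2 groups fitted (0.0506), and its difference was -0.41 with array weights.

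Regulators of the family split into risers and fallers. Of 17 tested, 5 rose and 5 fell in Sufu KO, and 4 rose and 7 fell in the tumours. E2f1, which drives the genes of DNA replication, rose 2.55-fold and 3.53-fold, and Ube2c, a ubiquitin-conjugating enzyme of mitosis, 1.93-fold and 2.83-fold. Both of these also belong to cell division. Pim1, a kinase that phosphorylates Bad, was 1.80-fold higher in the tumours than in Sufu KO (limma adjusted p = 9.50e-05).

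Fbxw7, the ubiquitin ligase receptor that marks Mcl1 for destruction, averaged 8.98 ± 0.10 in wildtype, 8.53 ± 0.08 with Sufu deleted and 7.73 ± 0.18 in tumour samples (log2, SD, n = 3). It fell 1.37-fold in Sufu KO (limma adjusted p = 0.00416), and in the tumours 2.37-fold (adjusted p = 4.68e-07), and the step between the mutants passed as well (adjusted p = 7.97e-05). With the mean of all probe sets of Fbxw7 the log2 differences were smaller and still called, at -0.27 in place of -0.45 in Sufu KO, -0.66 in place of -1.24 in the tumours and -0.38 in place of -0.79 between the mutants. Mapk10, the neuronal Jun kinase, fell 1.88-fold in the tumours (adjusted p = 4.72e-06), and Mapk9, another Jun kinase, 1.29-fold in Sufu KO (adjusted p = 0.00680). The fall of mature granule neuron genes and the rise of progenitor genes given above moved with these values, and their part in them was not tested.

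**Figure D4:**
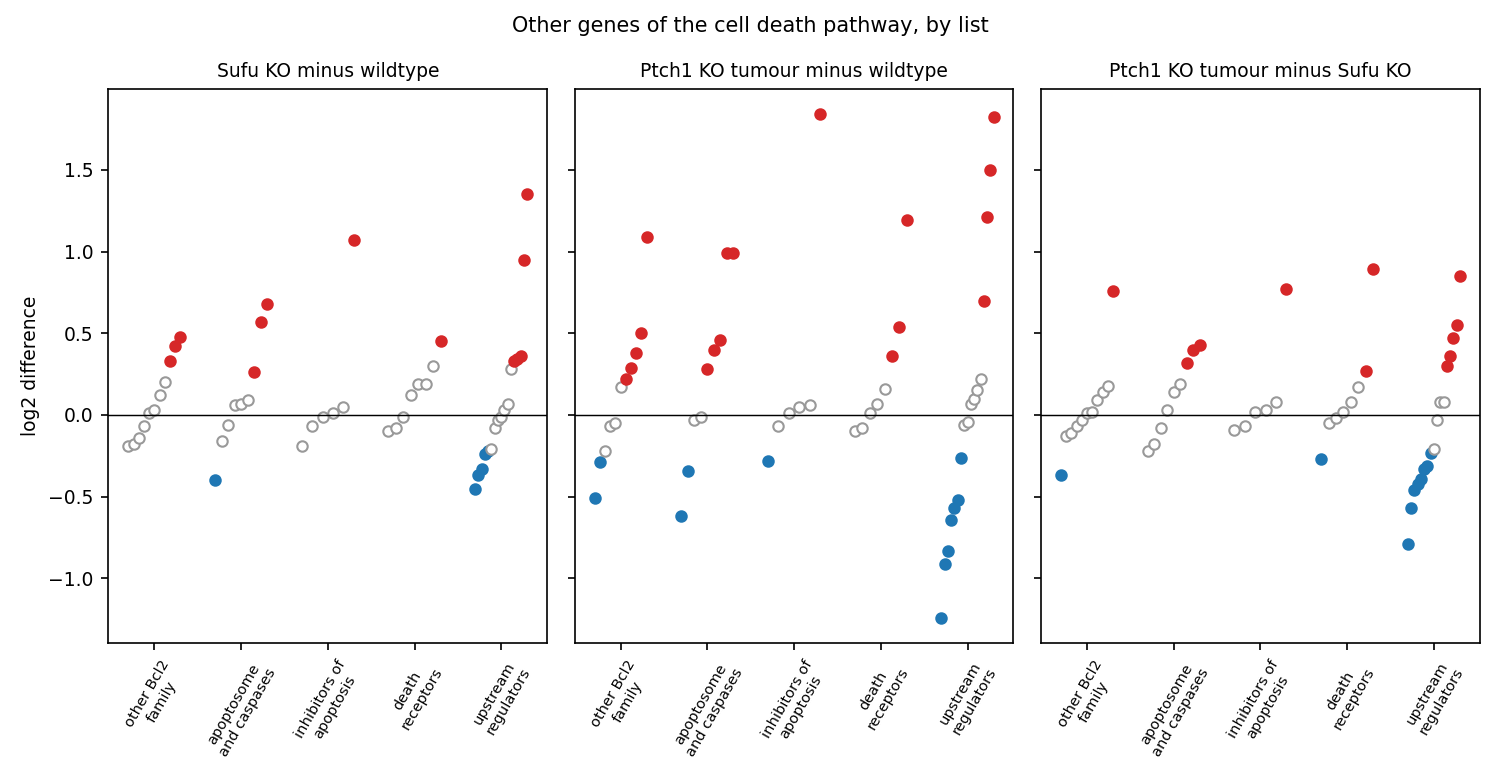
Log2 differences (vertical axis) of the 51 tested pathway genes by list in the 3 comparisons; each point is a gene, red called higher, blue called lower and open grey not called (limma adjusted p, threshold 0.05). Birc5 and E2f1 are the highest points of their lists in the tumours against wildtype, and Fbxw7 is the lowest.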

How the data were processed

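Groups were taken from the labels. The authors deposited values for 35556 probe sets, which were taken to be log2 from their range. How they corrected background and normalized is not stated in the labels. Of the probe sets 21789 had 1 gene symbol in the platform annotation, 1621 several and 12146 were not listed. Where a gene had several probe sets, the one brightest on average over the 9 arrays was kept. The 16323 genes that exceeded the 25th percentile of an array on 3 or more arrays were tested.

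limma 3.58.1 in R 4.3.3 fitted 1 mean per group to all 9 arrays, with moderated variances and 2-sided p-values adjusted by Benjamini-Hochberg over all tested genes, at a threshold of 0.05. Folds are log2 differences put back on the linear scale, and the fit was tested on simulated data. The family members and pathway lists were chosen with earlier results of these data known. In each pathway list the 2 genes with the smallest p among those called in each direction and comparison were named. The GC box search was added after the other motifs. Alternatives were the replicate number as a block, filters, normalization, probe set choice, priors, array weights, 2-group fits, sex read from Xist (above 8, log2) and leaving out each array. Same-numbered samples of different groups did not deviate together in every pair, so the numbers were not taken to pair them.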

Additional observations from a re-analysis of the deposited data

Results flagged for a closer look

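For 4 genes of the family the effect in the tumours differed from the effect in Sufu KO, by the limma contrast between the mutant groups, which share the wildtype arrays as control. Bcl2 was 0.55 higher in the tumours (log2, adjusted p = 1.17e-04, higher on 3 of 3 arrays than on every Sufu KO array), and it is the gene whose change from wildtype was called in Sufu KO and not in the tumours. Bcl2l1 differed by -0.37 (adjusted p = 0.00554), with all 3 tumour arrays below all Sufu KO arrays. Bid differed by 0.26 (adjusted p = 0.0376) and Bak1 by -0.22 (adjusted p = 0.0497), and both of these calls ended when single arrays were left out.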

How the results depend on the processing

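Bcl2 (Sufu KO against wildtype, and tumours against Sufu KO), Bid (either mutant group against wildtype), Mcl1 (tumours against wildtype) and Bcl2l1 (tumours against Sufu KO) kept their direction and call under all 20 alternatives. Not all of these could move a difference. Each gene had 1 probe set, so averaging probe sets left its values unchanged. Filters, priors and leaving out an array of the group not compared could alter only the call. The filter at the array median kept Bid through its tumour arrays alone, so it gives no support for Bid. With array weights, whose estimation stopped short of its tolerance, 4 genes of the family and 30 pathway genes were called in Sufu KO against wildtype, in place of 2 and 19, and 7 and 34 between tumours and Sufu KO, in place of 4 and 22; over all genes 7418 were called in place of 4150, and 8147 in place of 4846. Leaving out 1 array gave 2 to 2 family genes and 13 to 21 pathway genes in Sufu KO against wildtype, 2 to 4 and 27 to 32 in the tumours against wildtype, and 2 to 3 and 18 to 22 between the mutants; the last family count was 2 without wildtype replicate 1, any 1 Sufu KO array or tumour replicate 2.

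With the replicate number as a block the family counts were 2, 3 and 3 in the 3 comparisons, Bak1 being the call that ended (adjusted p = 0.0638), and the pathway counts 19, 31 and 22. Correlations of same-numbered deviations ran from -0.31 to 0.35.

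The differences that changed sign were all among those not called. With sex as a covariate Sufu KO minus wildtype became -0.01 for Bcl2l1, -0.09 for Bad and -0.04 for Bbc3, and with array weights -0.16 for Bbc3. Leaving out 1 array gave, for Sufu KO minus wildtype, -0.04 (without Sufu KO replicate 1) to 0.10 for Bad and -0.07 (the same array) to 0.15 for Bbc3. For tumours minus wildtype it gave -0.03 (without wildtype replicate 3) to 0.05 for Bcl2, -0.12 to 0.00 (without tumour replicate 3) for Bak1, and -0.11 to 0.05 (without wildtype replicate 1) for Pmaip1, which also turned to 0.01 without tumour replicate 2. For tumours minus Sufu KO it gave -0.05 (without tumour replicate 1; -0.04 without Sufu KO replicate 1) to 0.15 for Bcl2l11 and -0.05 (without Sufu KO replicate 2) to 0.17 for Bbc3. The cause of these changes was not tested. Background correction and slide as a block could not be tried on summarised values. Without detection calls the dimmest genes, Pmaip1, Bbc3 and Bid among them, may lie close to background.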
